A study of Homo sapiens with 6 samples.

Results

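ARID1A anchors that carried no H3K27ac anchor at either time are described here, in the rhabdoid tumour cell line G401. An anchor is a stretch of DNA at either end of a listed contact. The anchors of all 6 libraries were merged wherever they overlapped by 1 bp or more, which gave 30001 merged anchors, and 25738 of these held an anchor of an ARID1A library. Of those, 13158 held no anchor of any H3K27ac library and are called ARID1A-only below. The other 12580 also held an H3K27ac anchor: 5797 at both times, 6516 at day 3 only and 267 at day 0 only. The ARID1A-only anchors were chosen by whether anchors were listed in these same libraries, so their having ARID1A and lacking H3K27ac is no finding. A region without a listed H3K27ac anchor was not measured for contacts in that group, and it may still carry some of the mark.

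HiChIP joins DNA ends that lie close together in the nucleus and then pulls down a chosen protein or histone mark, so each count is a contact held at that protein. The count of a contact is its number of paired-end tags (PETs), and a pair of anchors with at least 1 PET is a listed loop. G401 lacks SMARCB1, and the line used carried a doxycycline-inducible SMARCB1. It was kept in tetracycline-free serum, and all groups share that construct. The groups were ARID1A at day 3 of 1 μg/ml doxycycline, labelled SMARCB1 +/+, H3K27ac at day 3 under the same treatment, and H3K27ac at day 0, labelled SMARCB1 -/-. Each group had 2 libraries, and no label says that they came from separate cultures, so spreads and p-values may be technical. ARID1A at day 0 was not analysed here, so no ARID1A contact is compared between the times. SMARCB1, doxycycline and time changed together between the times and cannot be told apart.

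ARID1A is a DNA-binding subunit of the canonical form of SWI/SNF, an ATP-driven complex that slides and evicts nucleosomes. SMARCB1 is a core subunit of the same complex, and its loss is the defining lesion of rhabdoid tumours. SWI/SNF is best known for opening enhancers and promoters. H3K27ac, written by the acetyltransferases p300 and CBP, marks the active ones among them. An open or remodeller-bound site can lack the mark, as primed enhancers do. The coordinates below are those of the files, in hg19. Regions carry their cytoband as a name; no gene or sequence is given, since no annotation or genome of that build was used here.

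The ARID1A libraries listed 157578 and 164053 loops with 435210 and 467487 PETs. The H3K27ac libraries held 929128 and 982141 PETs at day 3 and 301703 and 253502 PETs at day 0. Of the ARID1A-only anchors, 12494 were listed in both ARID1A libraries, 314 in replicate 1 only and 350 in replicate 2 only. Every ARID1A-only anchor came from a single deposited anchor, so none was widened by merging. Those listed in both libraries thus had the same start and end in each. Anchor bounds were therefore not set independently in the replicates, and their recurrence and equal width are no measure of agreement. All of them had at least 1 loop to another merged anchor in the library that listed them, and 7801 had 10 or more PETs in both. PETs per ARID1A-only anchor went together between the replicates, with a Spearman correlation of 0.926 across the 12494 anchors, which share libraries and are not independent.

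ARID1A-only anchors were narrow. Their median width was 4966.5 and 4962.5 bp in the 2 libraries, against 7347 and 7336 bp of called ARID1A anchor at the regions with H3K27ac. Nearly all anchors recur in both replicates, so these medians carry little of the spread between experiments. In replicate 1 the 10th and 90th percentiles were 3121 and 8986 bp, and the widest ARID1A-only anchor reached 49429 bp. The rule itself favours narrow anchors, since a wide one has more room to overlap an H3K27ac anchor. Of ARID1A anchors under 3 kb, 69.6% had no H3K27ac anchor. The share was 60.2% at 5 to 6 kb, 35.4% at 8 to 12 kb and 4.92% at 20 kb or wider, where 67 of 1362 anchors were ARID1A-only.

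They also held fewer contacts per anchor. An ARID1A-only anchor had 9.45 and 9.82 partner anchors on average in the 2 libraries, against 13.9 and 14.5 at ARID1A anchors with H3K27ac. Mean PETs per anchor were 21.0 and 22.4, against 45.8 and 49.2. The gap is wider than the difference between replicates in each class. Both classes come from the same 2 libraries, so an exact sign-flip test could not go below p = 0.5, and none is given. Among anchors with H3K27ac, those with the mark at both times held 58.6 and 63.1 PETs, and those with it at day 3 only held 34.0 and 36.3. The ARID1A-only anchors had fewer than either.

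The difference in level was small between anchors of similar width. At 5 to 6 kb, ARID1A-only anchors held 18.6 and 19.9 PETs on average, against 18.7 and 20.2 at anchors with H3K27ac. At 4 to 5 kb they held 14.8 and 15.9 PETs, against 15.3 and 16.5. The ratio of the means lay between 0.919 and 0.995 in all bins from 3 to 8 kb and in both libraries. It was lower among wide anchors, at 0.798 and 0.797 for those of 20 kb or more, where ARID1A-only anchors held 127 and 137 PETs against 160 and 172. That bin has no upper limit, so widths in it are not equal. The widest ARID1A-only anchor had 49429 bp, and the widest with H3K27ac 115206 bp. The part of width in the lower ratio was not tested. For partners per anchor the ratio lay between 0.914 and 0.995 over all bins and libraries. Its lowest value was under 3 kb, and at 20 kb or more it was 0.938 and 0.939, so partners did not show the lower ratio that PETs had among wide anchors. Per kb of called anchor, ARID1A-only anchors held 3.69 and 3.93 PETs, against 4.45 and 4.79 at anchors with H3K27ac. Partners per kb went the other way, at 1.66 and 1.73 against 1.35 and 1.41.

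**Figure D1:**
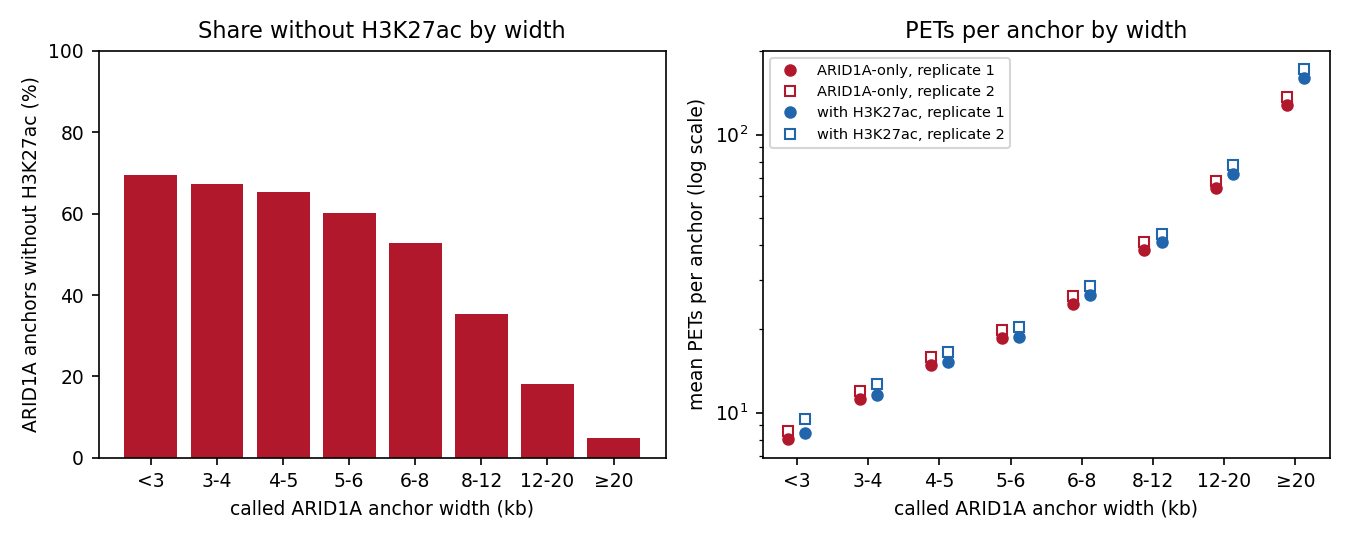
Left, share of ARID1A anchors without H3K27ac (%) by called width in kb, falling from 69.6% under 3 kb to 4.92% at 20 kb or more. Right, mean PETs per anchor on a log axis for ARID1A-only anchors and for anchors with H3K27ac, each replicate as its own point. The classes lie close together at similar width, least so at 20 kb or more, a bin with no upper limit.

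The split of contacts between partners with and without the mark lay near the split of called bases. Of the PETs of ARID1A-only anchors, 61.9% ± 0.0521 reached an anchor with H3K27ac and 38.1% ± 0.0521 reached another ARID1A-only anchor (SD, n = 2 libraries). Every partner in these libraries is itself an ARID1A anchor, because only ARID1A anchors are listed there. By class, 33.4% ± 0.132 of PETs went to anchors with H3K27ac at both times, 27.1% ± 0.100 to those with it at day 3 only and 1.39% and 1.42% in the 2 libraries to those with it at day 0 only. For ARID1A anchors with H3K27ac, 29.1% ± 0.119 of PETs reached an ARID1A-only anchor and 70.9% ± 0.119 another anchor with the mark. ARID1A-only anchors make up 51.1% of all ARID1A anchors but 36.6% of their total width. Anchors with H3K27ac hold the other 63.4% of the width. Among anchors of 3 to 8 kb at both ends, the share of PETs of ARID1A-only anchors that reached H3K27ac was 38.5% and 38.9%, so the majority turned over there. Over all widths, the 38.1% of PETs that they send to one another lies near their share of the bases, and the 29.1% from anchors with H3K27ac lies below it.

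**Figure D2:**
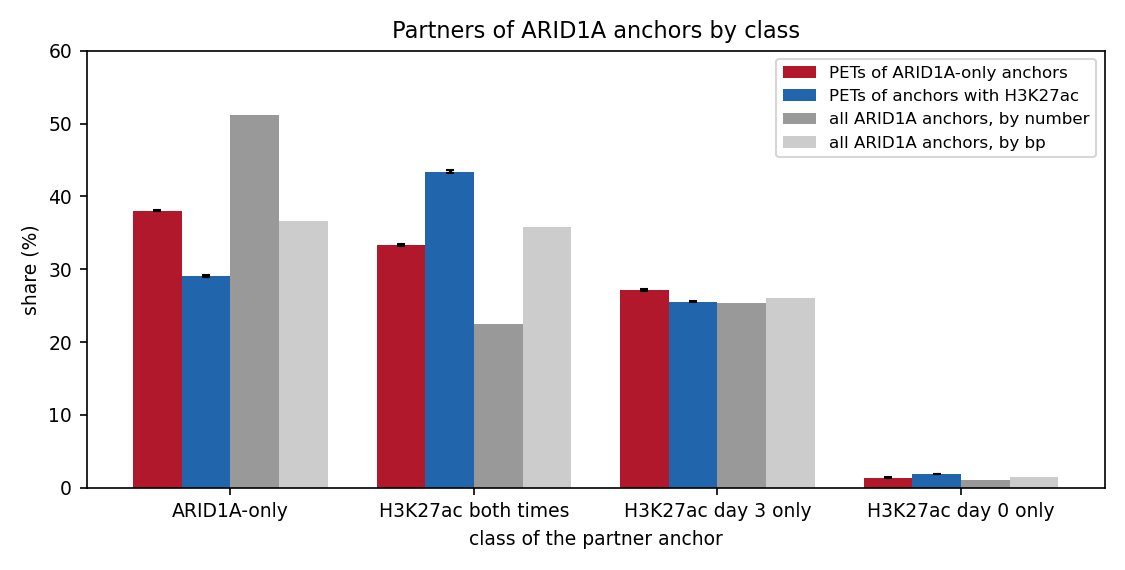
Share of PETs (%) that reach each class of partner, for ARID1A-only anchors and for ARID1A anchors with H3K27ac, with the SD of the 2 libraries as error bars. The grey bars give each class as a share of all ARID1A anchors by number and by bp, and ARID1A-only anchors are 51.1% by number and 36.6% by bp.

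Most ARID1A-only anchors had partners of both kinds. In replicates 1 and 2, 86.7% and 87.6% of them had both an ARID1A-only partner and a partner with H3K27ac. A further 7.85% and 6.80% had only partners with H3K27ac, and 5.47% and 5.64%, or 701 and 725 anchors, had only ARID1A-only partners. A partner with H3K27ac at both times was found for 82.2% and 82.6% of them, one with it at day 3 only for 82.9% and 83.7%, and one with it at day 0 only for 10.1% and 10.4%. ARID1A-only partners outnumbered those with H3K27ac at 29.0% and 28.8%.

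Over all widths, loops between ARID1A-only anchors held fewer PETs and spanned less DNA than loops between anchors with H3K27ac. With anchors of 3 to 8 kb at both ends, the ratio of PETs per loop turned to 1.01, against 0.511 over all widths, and the difference in median span was -17.2 kb, against -30.4 kb. Loops between ARID1A-only anchors made up 17.3% of the merged ARID1A loops in each library but 12.2% ± 0.0575 of PETs, with 2.01 and 2.06 PETs per loop. Loops from an ARID1A-only anchor to one with H3K27ac held 2.38 and 2.44 PETs each and 39.6% ± 0.0995 of PETs. Those between anchors with H3K27ac held 3.90 and 4.05 PETs each. A single PET was the whole count of 65.4% and 65.3% of loops between ARID1A-only anchors, against 48.7% and 47.7% of loops between anchors with H3K27ac. Many loops did not recur between the replicates, and the part of low counts in this was not tested. Of the ARID1A-only to ARID1A-only loops of replicate 1, 47.7% were listed in replicate 2 as well, against 64.6% of those between anchors with H3K27ac. The shared loops carried 68.3% and 67.7% of the PETs of the ARID1A-only to ARID1A-only class.

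The span of a loop is the distance between the midpoints of its anchors, and the median was weighted by PETs. It was 62.3 and 61.6 kb for loops between ARID1A-only anchors, against 91.9 and 92.7 kb for loops between anchors with H3K27ac. Loops that joined the classes spanned 92.6 and 93.2 kb, close to the H3K27ac-bearing pairs. The long-range share of all contacts of ARID1A-only anchors was not smaller, with 12.4% and 12.5% of their PETs at 500 kb or more, against 11.7% and 11.9% at anchors with H3K27ac. Counted per loop and not per PET, the median span was 170 and 176 kb for loops between ARID1A-only anchors and 255 and 263 kb for those between anchors with H3K27ac.

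Distance between anchors was taken into account by asking what share of all possible pairs on a chromosome had a listed loop. At 5 to 20 kb, 91.9% and 92.8% of possible ARID1A-only pairs were listed, against 95.0% and 94.7% of pairs with H3K27ac at both ends. At 100 to 200 kb the shares were 34.5% and 35.5%, against 62.6% and 64.5%. At 1000 to 2000 kb they were 2.41% and 2.65%, against 7.70% and 8.22%. Over anchors of all widths, mixed pairs lay between the other classes in each distance bin and library.

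The separation narrowed when only anchors of 3 to 8 kb were kept at both ends. The share listed at 100 to 200 kb was then 29.6% and 29.8% for ARID1A-only pairs, against 35.5% and 37.6% for pairs with H3K27ac. At 500 to 1000 kb it was 5.85% and 6.10%, against 6.34% and 6.88%. Stricter loops widened the separation over all widths: the ratio of the shares at 100 to 200 kb was 0.551 as listed, 0.327 for loops of 2 or more PETs and 0.163 for loops with a deposited value of 0.01 or less. Widths were still not equal in this range, with a ratio of median width of 0.922. Partner shares narrowed there too. ARID1A-only anchors were 60.9% and 61.0% of the anchors of 3 to 8 kb and received 61.5% and 61.1% of the PETs of ARID1A-only anchors, against 56.3% and 56.4% of the PETs of anchors with H3K27ac.

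**Figure D3:**
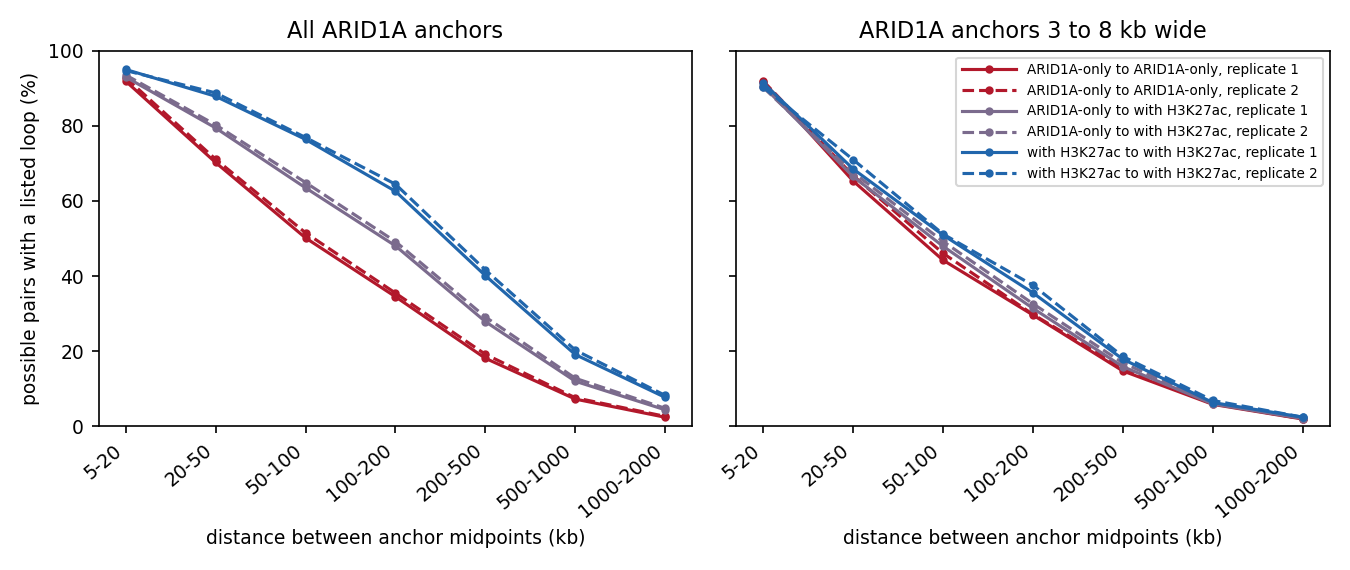
Share of possible anchor pairs with a listed ARID1A loop (%) by distance between midpoints in kb, for ARID1A-only pairs, mixed pairs and pairs with H3K27ac at both ends, with replicate 1 solid and replicate 2 dashed. At 100 to 200 kb the classes lie between 34.5% and 64.5% for all anchors (left) and between 29.6% and 37.6% for anchors 3 to 8 kb wide (right).

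ARID1A-only anchors lay farther from the nearest H3K27ac anchor than the other ARID1A anchors lay from the next one. Here and below, a gap runs to the edge of the nearest merged anchor that held H3K27ac. An ARID1A anchor can set that edge, so the H3K27ac anchor inside may lie farther off. The gap for either time had a median of 22.4 kb, and 2506 ARID1A-only anchors, or 19.0%, lay within 5 kb. For ARID1A anchors with H3K27ac, the gap to another H3K27ac anchor had a median of 11.96 kb, and 31.2% lay within 5 kb. For ARID1A-only anchors the median gap was 23.1 kb to the nearest day 3 anchor and 60.2 kb to the nearest day 0 anchor. Day 3 had more anchors to be near. The rule has a sharp edge here. Without overlap, 93 ARID1A-only anchors abutted a merged anchor with H3K27ac, and 261 lay within 500 bp. The nearest that did not abut was an anchor at 17p11.2 (chromosome 17, 19224804 to 19232336), 8 bp from a merged anchor with H3K27ac. It had 16 and 5 PETs. Just outside it, one at 11q13.1 (chromosome 11, 64884131 to 64892062) overlapped an H3K27ac anchor by 55 bp and had 17 and 21 PETs. At the other end, 2053 ARID1A-only anchors lay more than 100 kb from any H3K27ac anchor and 118 more than 1000 kb.

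Contacts thinned out with that gap. ARID1A-only anchors within 5 kb of an H3K27ac anchor had 33.3 and 35.7 PETs on average, those at 20 to 50 kb had 19.3 and 20.5, and those at 100 to 500 kb had 7.05 and 7.32. At 500 kb or more, 327 anchors had 1.64 and 1.93 PETs. Median width moved with it, at 5208.5, 4986, 4502.5 and 4315 bp in these 4 bins, and so did the number of ARID1A anchors within 200 kb, at medians of 11, 9, 3 and 1. The part of either in the result was not tested. The share of PETs that reached anchors with H3K27ac was 73.6% and 73.5% within 5 kb, 52.9% and 52.4% at 20 to 50 kb, 44.5% and 43.5% at 100 to 500 kb, and 28.9% and 25.8% at 500 kb or more. Contacts also spanned more DNA at wider gaps, with a median of 53.6 kb in each library within 5 kb and 257 and 260 kb at 100 to 500 kb. The groups were set by distance to H3K27ac anchors, and fewer pairs are listed at longer distance. The trends in share and span are therefore not independent of the grouping.

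**Figure D4:**
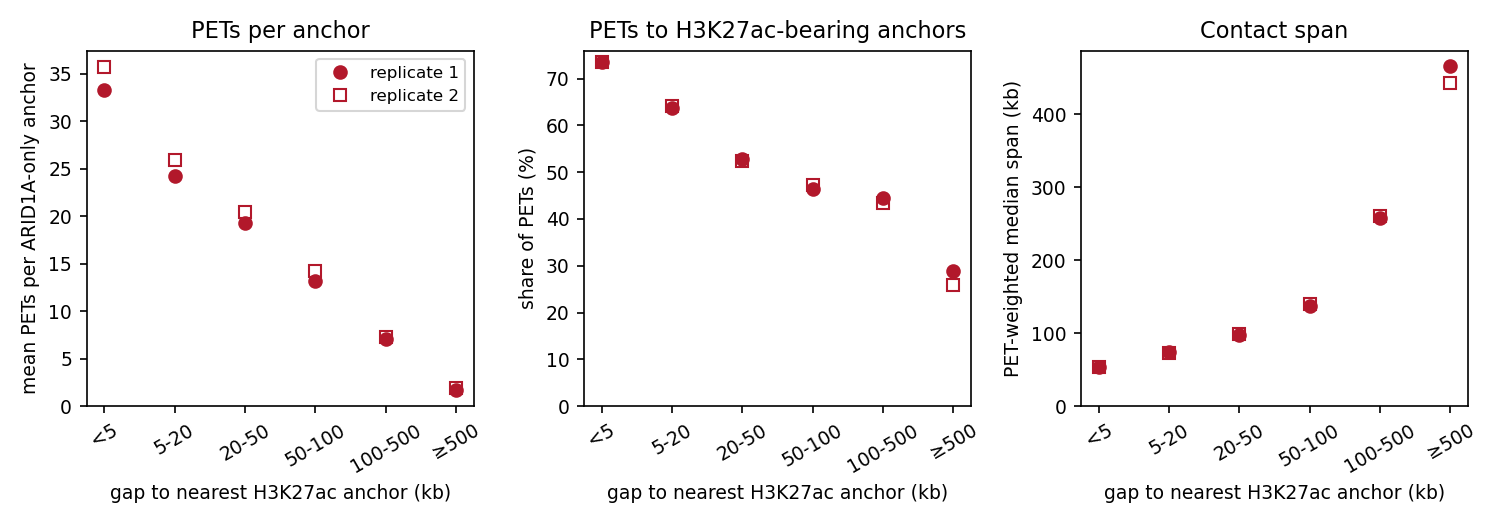
ARID1A-only anchors grouped by the gap to the nearest merged anchor with H3K27ac at either time (kb), with each ARID1A replicate as a point. From the nearest group to the farthest, mean PETs per anchor fall from 33.3 and 35.7 to 1.64 and 1.93, the share of PETs to H3K27ac-bearing anchors falls, and the PET-weighted median span in kb grows.

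Loops of the H3K27ac libraries passed over most of these regions. A loop of the day 3 H3K27ac libraries had its anchors on opposite sides of 92.9% of ARID1A-only anchors in each replicate, and of 95.9% of ARID1A anchors with H3K27ac in each. At day 0 the shares were 80.3% and 79.7%, against 85.2% and 84.8%. The median number of day 3 H3K27ac loops over an ARID1A-only anchor was 42 in each replicate, against 58 and 57 over anchors with H3K27ac. At day 0 it was 7 and 6, against 11 and 10. The day 3 libraries held more PETs and loops than those of day 0, so these numbers show no change between the times.

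ARID1A-only anchors were spread over the genome but made up more of the ARID1A anchors in dark bands. Dark Giemsa bands are known as gene-poor and late-replicating, and light bands as gene-rich. In the darkest classes, gpos75 and gpos100, 56.4% and 55.7% of ARID1A anchors were ARID1A-only, against 49.98% in light gneg bands and 49.3% in gpos25 bands. Among anchors of 3 to 8 kb the shares were 67.8% and 64.9%, against 59.7% and 59.6%. By density the order was the reverse, with 3.40 and 1.99 ARID1A-only anchors per Mb in gpos75 and gpos100 bands, against 5.72 per Mb in gneg bands. By chromosome the share ran from 44.0% on chromosome 22, 44.3% on 21 and 45.2% on 19 to 57.2% on 4 and 60.5% on 13. These are counts of 1 anchor list for the cell line, with no replicate, and no test is given.

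Of bands with 30 or more ARID1A anchors, 3q27.2 had the highest share, with 24 of 31 ARID1A-only. In 4q22.1 it was 61 of 82 and in 17q23.2 it was 40 of 55. The lowest share was in 11q12.3, with 9 of 34, followed by 22q11.23 with 9 of 30. The most ARID1A-only anchors in a band were the 93 of 19p13.2, or 55.0% of its ARID1A anchors, and the 89 each of 19p13.3 and 17q11.2, at 46.1% and 59.7%.

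Along the chromosomes, 3553 ARID1A-only anchors, or 27.1%, stood alone between anchors of other classes. The rest formed runs with no other merged anchor between them, and 2623 lay in runs of 5 or more. The longest run had 15 anchors over 661 kb of 4p15.2 (chromosome 4, 25365291 to 26025997). It held 33 and 34 loops among its own anchors, which took 36.7% and 45.5% of its PETs. A run of 14 in 12p13.31 (chromosome 12, 7948269 to 8166406) was far denser, with 176 and 179 PETs among its own anchors, or 67.2% and 70.2% of its PETs. Another run of 14 covered 1054 kb of 2p13.2 (chromosome 2, 71969151 to 73023189), with 35 PETs inside it in each library. H3K27ac loops of every library passed over all anchors of these 3 runs. The fourth, with 13 anchors from 9q21.31 to 9q21.32 (chromosome 9, 82796817 to 86094140), spread over 3297 kb, had only 8 and 7 PETs inside it, and no H3K27ac loop passed over any of its anchors.

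Joined by loops listed in both ARID1A libraries, 9205 ARID1A-only anchors fell into 1475 networks with a median of 3 anchors and a largest of 114. With 5 or more PETs asked for in both libraries, 2217 of them formed 927 networks, of which 701 were single pairs. The largest of these had 9 anchors, in 1q32.2 (chromosome 1, 210030795 to 210363082).

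The 12 ARID1A-only anchors with most contacts were all wide, from 21937 to 49429 bp. All lay within 13.7 kb of a merged anchor with H3K27ac. The highest was at 15q22.31 (chromosome 15, 67119711 to 67158387), with 388 and 422 PETs and 47 and 45 partners, over 38676 bp. It lay 1.98 kb from a merged anchor with H3K27ac at day 0 and 15358 bp from the nearest with it at day 3. Its neighbour at 67159610 to 67198308 came next, with 326 and 370 PETs and 41 and 57 partners. Of the PETs of the first, 75.8% and 76.3% reached H3K27ac-bearing anchors. Both met a broad anchor at 66989147 to 67104353 with H3K27ac at both times. It was joined to the first by 178 and 200 PETs over 92.3 kb, the largest count of any loop with an ARID1A-only end, and to the second by 66 and 69 PETs over 132 kb. The pair were joined to each other by 66 and 83 PETs, the most of any loop between ARID1A-only anchors.

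The third was at 7q22.3 (chromosome 7, 104712141 to 104761570), with 306 and 322 PETs. At 49429 bp it was also the widest. Its largest contact, of 48 and 64 PETs, was with an anchor that had H3K27ac at day 3 only. The fourth, at 6q16.3 (chromosome 6, 105059464 to 105084275), had 226 and 234 PETs in a dark gpos100 band. It sent 86.7% and 88.5% of them to H3K27ac-bearing anchors, and 101 and 114 PETs to 1 anchor at 104969860 to 105058947 that had H3K27ac at day 0 only. As a merged anchor, that partner was 89087 bp wide. The nearest merged anchor with H3K27ac of any kind, one of day 0, lay 171 bp from the ARID1A-only anchor.

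The other 8 of the 12 with the highest level lay in 1p36.11, 3q25.1, 17q21.31, 3p14.3, 1q32.2, 4q34.1, 5q13.3 and 12q24.31, with 183 to 223 PETs in replicate 1 and 193 to 253 in replicate 2. The 12q24.31 anchor (chromosome 12, 120829758 to 120853344) sent 89.4% and 92.7% of its PETs to H3K27ac-bearing anchors. By contrast, the 3p14.3 anchor (chromosome 3, 57277767 to 57299704) sent them 42.8% and 47.2%, and the 1q32.2 anchor (chromosome 1, 210030795 to 210060953) 47.4% and 34.1%. At 4q34.1 (chromosome 4, 174155868 to 174182743) no day 0 H3K27ac loop passed over the anchor, while 21 and 26 did at day 3. Over the 6q16.3 anchor 5 passed in each day 0 library, and 2 and 3 at day 3. The day 3 libraries listed more loops, so the higher counts at 4q34.1 show no change between the times. The counts at 6q16.3 went the other way, were few and were not tested. Those named for width or partners add 17p13.3 (chromosome 17, 1258019 to 1299363), which held only 70 and 76 PETs over 41344 bp, and 2q31.1 (chromosome 2, 171704242 to 171725532), with 45 and 42 partners on 105 and 132 PETs.

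After the 15q22.31 pair, the strongest loops between ARID1A-only anchors were all short. In 9q33.3 (chromosome 9), 128575617 to 128590512 met 128593758 to 128620066 with 58 and 54 PETs over 23.8 kb. In 1q32.2 (chromosome 1), 210030795 to 210060953 met 210062237 to 210080894 with 43 and 60 PETs over 25.7 kb. A pair of such loops lay in 17q21.31 (chromosome 17), from 42721246 to 42731799 with 42735760 to 42760671, at 49 and 47 PETs, and from 42517388 to 42540817 with 42541784 to 42554101, at 49 and 43. The remaining 3 were in 9p13.3, 1p36.11 and 3p14.3, with 35 to 42 PETs in replicate 1 and 38 to 43 in replicate 2. None of these 8 loops spanned more than 39.9 kb.

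Loops to anchors with H3K27ac were stronger at the top. In 2p25.1 (chromosome 2) the anchor at 9733575 to 9748979 met one at 9691825 to 9732804 with 69 and 79 PETs. In 3q25.1 (chromosome 3) the one at 150009985 to 150041191 met 150042439 to 150082050, which had H3K27ac at day 3 only, with 67 and 78. In 12q14.3 (chromosome 12) the anchor at 66065276 to 66076188 met the broad one at 65976658 to 66059233 with 62 and 77, and in 12q24.31 the count was 74 and 68. The eighth ran from 1p35.2 to 1p35.1, with 63 and 67 PETs. Beyond 500 kb counts were small. The highest was 10 and 12 PETs over 523 kb, from the second 15q22.31 anchor to 67686249 to 67717727 in 15q23, which had H3K27ac at day 0 only. One over 677 kb in 10q21.3 (chromosome 10, 70531379 to 70569608 with 69828327 to 69918720) had 11 and 10. Those in 7q21.11 and 5q23.2 had 10 PETs each in replicate 1 and 9 and 8 in replicate 2.

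Some H3K27ac-bearing anchors gathered many ARID1A-only partners. The most were 31 and 34, both at 3p14.3 (chromosome 3, 57792837 to 57857500), where they were part of 59 and 62 partners, and at 4q22.1 (chromosome 4, 90787900 to 90839395), of 44 and 46. Over all ARID1A anchors with H3K27ac, 40.4% of partners were ARID1A-only, and these took 29.1% of PETs. At 3p14.3 the ARID1A-only partners took 142 and 143 of 472 and 498 PETs, near that share. At 4q22.1 the ARID1A-only partners took 202 and 217 of 369 and 393 PETs. The anchor at 10q21.3 (chromosome 10, 69828327 to 69918720) gave them 219 and 246 of 323 and 352 PETs, and the one at 17q11.2 (chromosome 17, 27563309 to 27602821) 111 and 107 of 208 and 205. All 4 had H3K27ac at both times.

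The partners of ARID1A-only anchors can be followed in the H3K27ac libraries. The rule used where anchors were listed in these libraries, as did the choice of anchors called at both times, but not the counts of PETs at the partners. The comparison asked whether H3K27ac contacts at those partners differed between day 3 of SMARCB1 re-expression and day 0. Anchors called for H3K27ac at both times were tested with edgeR's quasi-likelihood test on PETs of loops between such anchors, with Benjamini-Hochberg adjustment over all 6251 tested. Over all of them, 39.5% were called at an adjusted p under 0.05, 20.7% higher at day 3 and 18.8% lower. Of the 4526 that had a loop to an ARID1A-only anchor in both ARID1A libraries, 1099 were higher and 815 lower, which is 24.3% and 18.0%. Of the 1725 without such a loop, 195 were higher and 362 lower, which is 11.3% and 21.0%. Of these, 938 held no ARID1A anchor and so could have no such loop, with 10.1% higher and 21.6% lower. The 787 that held an ARID1A anchor had 12.7% higher and 20.2% lower. DESeq2 called 579 partners higher and 374 lower. The direction depended on scaling. With all PETs of each library as its size, in place of the PETs of the tested anchors with TMM factors, the counts among partners were 426 higher and 2134 lower, and the median log2 fold change over all tested anchors was -0.51 where it was -0.01 before.

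The share called higher grew with the number of ARID1A-only partners. It was 16.9% at anchors with 1 or 2, 23.3% with 3 to 5, 31.8% with 6 to 10 and 45.5% with 11 or more. Over the same steps the share called lower was 17.7%, 18.7%, 16.8% and 20.5%. Anchors with more such partners were also better covered and more widened. From 1 or 2 partners to 11 or more, the median PETs over the 4 libraries were 183.5, 252, 381 and 747, and the median ratio of called H3K27ac width, day 3 over day 0, was 1.22, 1.30, 1.38 and 1.49. Among the 2524 anchors whose called width was similar at both times, within the same fit, the share called higher was 3.47%, 4.90%, 7.43% and 14.6%, and that called lower was 26.2%, 31.4%, 30.9% and 42.7%. There the background was 4.44% higher and 28.6% lower, or 112 and 722 anchors. Refitted on these 2524 anchors alone, edgeR called 252 higher and 231 lower, so the excess of lower calls depended on the scaling. The difference between these steps was not tested, nor was the part of coverage in it. Anchors were not grouped by their ARID1A partners of all classes, so the trend is not shown to be particular to ARID1A-only partners.

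**Figure D5:**
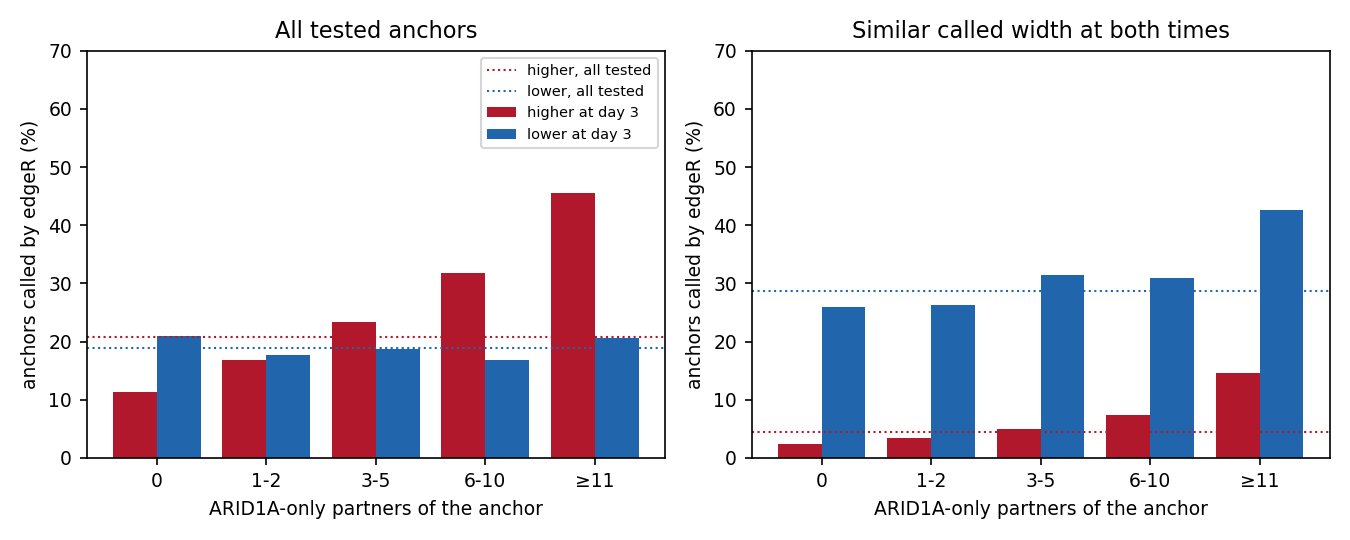
Share of H3K27ac anchors called higher or lower at day 3 against day 0 by edgeR (%), by the number of ARID1A-only partners they had in both ARID1A libraries. Of the 1725 anchors without such a partner (left), 938 held no ARID1A anchor. Dotted lines give the shares over all anchors shown, 20.7% and 18.8% on the left, and 4.44% and 28.6% on the right, where only anchors of similar called width are counted, within the fit of all anchors. Refitted alone, these gave 252 higher and 231 lower.

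Of the partners that rose, the one with the smallest p was at 12q14.3 (chromosome 12, 65976658 to 66059233), with 1879 and 2067 PETs at day 3 against 136 and 104 at day 0, and a log2 fold change of 2.76 ± 0.08 (SE; edgeR adjusted p = 1.06e-85). The anchor had 10 ARID1A-only partners in both ARID1A libraries, which took 17.3% of its ARID1A PETs, and its called H3K27ac width was 75866 bp at day 3 and 13651 bp at day 0. The other partners named for a rise, at 17q21.31, 2p16.1 and 14q24.1, had 13, 5 and 11. Among those that fell, an anchor at 15q26.1 (chromosome 15, 93408870 to 93476210) had 61 and 52 PETs at day 3 against 383 and 278 at day 0, a log2 fold change of -3.82 ± 0.13 (SE; edgeR adjusted p = 5.20e-79). It had 8 ARID1A-only partners, which took 33.5% of its ARID1A PETs. The other partners named for a fall, at 8q24.21, 14q24.1 and 5q13.3, had 15, 11 and 12. All 4 that rose were called wider at day 3 and all 4 that fell narrower, and the part of width in these values was not tested.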

How the data were processed

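Per the labels, paired-end reads came from 6 HiChIP libraries. HiC-Pro, Bowtie2 and hg19 are named in the submitters' processing notes, and how anchors and loops were called is not given in the sources used here. The deposited files give, for each pair of anchors, a raw count of PETs, not normalised, and a value from 0 to 1, a p-value or q-value that has no header to say which; it served only as a threshold of 0.01 in an alternative. All loops lay within a chromosome and spanned 5 to 2000 kb. The files do not state whether coordinates count from 0 or 1.

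Merging and counting used pandas 2.3.3 and numpy 2.4.6 under Python 3.11.15, and networkx 3.6.1 built the networks. PETs of loops between the same merged anchors were summed. Loops inside a merged anchor were left out (3.55% and 3.53% of ARID1A PETs). Width is the called ARID1A width. Bands come from the hg19 table in circlize 0.4.16, and chromosome Y was left out of counts by band, run and chromosome. H3K27ac PETs were tested with edgeR 4.0.16 in R 4.3.3 (TMM, 10 or more PETs in 2 or more libraries; alternative DESeq2 1.42.0), checked on simulated counts. Each loop counts at both of its anchors there. The simulated counts had a fixed spread, not estimated from these data. Of 100 changes of 2-fold 46 were called, and of 100 of 4-fold 90, with 9 false calls. Replicate numbers were checked as pairs: deviations of same-numbered libraries had a correlation of 0.0126 across 6251 anchors, so they do not pair. Counts of PETs limit the precision of single loops.

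Regions were named by rule: the 12 ARID1A-only anchors with the highest mean level (CPM, PETs scaled to the library's merged total), the 4 widest, the 4 with most partners and the 4 longest runs; 8 loops between ARID1A-only anchors, 8 to H3K27ac-bearing ones and 4 of 500 kb or more with the highest level; the 4 H3K27ac-bearing anchors with most ARID1A-only partners; and 4 partners in each direction with the smallest p. The bands with most or fewest and the anchors at the edge of the rule were singled out after their values were seen. The set of anchors and these rules were chosen with earlier results of these data known.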

Additional observations from a re-analysis of the deposited data

How the results depend on the processing

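Values are ratios or differences of ARID1A-only anchors to other ARID1A anchors, in the order share of ARID1A anchors, ratio of median width, of partners and of PETs, ratio of PETs per loop and span difference between loops of the same class, share of PETs to H3K27ac, and ratio of listed pairs at 100 to 200 kb. They are means of the 2 ARID1A libraries, each over the anchors it listed, so the share differs from the 51.1% of all merged ARID1A anchors. In the main setting they were 50.7%, 0.676, 0.678, 0.456, 0.511, -30.4 kb, 61.9% and 0.551. Merging anchors within 5 kb gave 46.1%, 0.576, 0.622, 0.356, 0.394, -35.7 kb, 70.9% and 0.534, and 9511 anchors. Loops with a deposited value of 0.01 or less gave 41.7%, 0.601, 0.503, 0.330, 0.567, -55.8 kb, 74.4% and 0.163. Loops of 2 or more PETs gave 48.3%, 0.663, 0.614, 0.436, 0.583, -47.5 kb, 64.0% and 0.327. Anchors listed in both ARID1A libraries gave 50.3%, 0.677, 0.688, 0.463, 0.513, -30.9 kb, 62.0% and 0.553. Merging touching anchors, chosen after seeing the data, gave 50.6%, 0.674, 0.676, 0.454, 0.510, -31.7 kb, 62.1% and 0.548, and 13065 anchors. Anchors of 3 to 8 kb gave 61.0%, 0.922, 0.920, 0.931, 1.01, -17.2 kb, 38.7% and 0.814, so the ratio of PETs per loop reversed there. With day 3 H3K27ac anchors alone as the bar, 13425 anchors were left over both libraries, and the mean share per library was 51.7%. Without either ARID1A library the span difference lay between -31.1 and -29.6 kb, the number of anchors between 12808 and 12844, the share to H3K27ac between 61.9% and 62.0%, and the ratio of PETs per loop between 0.508 and 0.514. The cause of the shifts was not tested.

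In the H3K27ac test, partners higher and lower at day 3 numbered 1099 and 815, and all anchors 1294 and 1177. Library totals gave 426 and 2134, and 490 and 2958. DESeq2 gave 579 and 374, and 664 and 522, with no adjusted p for 970 anchors. Refitted on anchors of similar called width, of which 2524 were tested, there were 210 and 162, and 252 and 231. Thinned to 253502 PETs, there were 770 and 510, and 887 and 706. Leaving out 1 library gave 824 to 936 and 550 to 601 partners, and 960 to 1082 and 779 to 849 anchors. The replicate block gave 1084 and 803 partners and 1279 and 1157 anchors. Without a filter on low counts there were 1126 and 775 partners. With partners defined by 2 or more PETs, 914 and 620 of 3427 were called.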
